A study of Homo sapiens with 12 samples.

Results

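The lower glycolysis and lactate genes were 10 of the 58735 genes measured: ALDOA, GAPDH, PGK1, PGAM1, ENO1, ENO2, PKM, LDHA, LDHB and SLC16A3. They were listed by name for their place in the pathway, from aldolase down to the export of lactate. The rule used no measured value, but the list was drawn up with earlier results of these data known. All 10 passed the filter on low values in both comparisons made below. RNA-seq had been done on 12 libraries in 4 groups, with 3 libraries in each. SK-BR-3 is a long-established breast tumour line of human origin that carries an amplified ERBB2 gene (HER2). SK/EPI is an epirubicin-resistant line that was raised from SK-BR-3 by prolonged exposure to epirubicin, an anthracycline, in steps of increasing dose, and it was the one resistant line sequenced, so its differences from SK-BR-3 cannot be told apart from those of that single derivation. SK/EPI-siBCRP and SK/EPI-siControl (siNC in the labels) are SK/EPI cells given siRNA against BCRP or control siRNA with the same lipid reagent for 48 h. BCRP is the drug efflux pump encoded by ABCG2. Both siRNA groups therefore share the resistant background, and neither SK-BR-3 nor untreated SK/EPI cells had received siRNA. The labels do not say that the libraries of a group came from separate cultures, so p-values measure only the spread between these libraries, which may be technical.

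The enzymes studied here carry out the second stretch of glycolysis. Aldolase splits the 6-carbon sugar into 3-carbon pieces, GAPDH oxidises them and makes NADH, PGK1 and pyruvate kinase (PKM) make ATP, and PGAM1 and the enolases work between them. Lactate dehydrogenase turns pyruvate into lactate and gives back the NAD+ that GAPDH needs, and the monocarboxylate transporter MCT4 (SLC16A3) carries lactate out of the cell. Many cancer cells run this route strongly even with oxygen present, and several of its genes are known targets of the hypoxia-inducible factors. The study asked what resistant cells gain from BCRP. It followed oxidative phosphorylation through RNA and protein levels, and also examined where BCRP lies, reactive oxygen species, proliferation and apoptosis. The route studied here is the cytosolic counterpart of mitochondrial respiration.

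Reads assigned to genes ranged from 15830381 to 20545811 per library. The deposited FPKM (fragments per kilobase of a gene's exons, corrected for the depth of the library) were tested as log2(FPKM + 1) with limma, and a gene is called where its Benjamini-Hochberg adjusted p over all tested genes was under 0.05. A log2 fold change on this scale understates the change of a gene at low FPKM. ABCG2 served as a check of the labels. It had 0.0220 to 0.0750 FPKM in SK-BR-3 and 32.7 to 35.9 in SK/EPI libraries, and stood at 2.84 to 3.47 in SK/EPI-siBCRP against 32.5 to 33.7 in SK/EPI-siControl cells. ERBB2 was at 652 to 662 FPKM in SK-BR-3 and 128 to 136 in SK/EPI cells, and the 6 epithelial markers summed to 3536 to 3732 and 2206 to 2324 FPKM. These markers did not move together. ERBB2, GRB7 and KRT19 were called lower in SK/EPI cells, and EPCAM did not pass. KRT8, from a mean of 765 to 902 FPKM, and KRT18, from 358 to 601, were called higher. The 5 leukocyte markers summed to 1.39 to 1.77 FPKM in SK-BR-3 and 27.1 to 28.9 in SK/EPI cells, of which CD14 made up 26.6 to 28.1, while PTPRC and LYZ stayed at or under 0.0357 in those 6 libraries. Of the 3 endothelial markers, summed at 6.67 to 6.99 and 27.0 to 28.1 FPKM, CDH5 made up nearly all, and the 5 fibroblast markers summed to 1.04 to 1.66 FPKM with DCN at 0 in both lines. In the siRNA groups the epithelial sum was 2180 to 2219 FPKM with siBCRP and 2610 to 2658 with siControl, the endothelial sum 22.3 to 22.5 and 13.9 to 14.1, and the leukocyte sum 8.74 to 9.60 and 7.26 to 8.27. The part of these marker differences in the results below was not tested. In bulk RNA, fewer cells making a transcript and less of it per cell cannot be told apart.

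By the GENCODE 29 annotation of GRCh38, LDHA (ENSG00000134333) lies at chr11:18394388-18408425 on the plus strand, PGK1 (ENSG00000102144) at chrX:77910739-78129296, PGAM1 (ENSG00000171314) at chr10:97426160-97433441 and SLC16A3 (ENSG00000141526) at chr17:82228397-82261129, all on the plus strand. Chromosome 12 holds GAPDH (ENSG00000111640, 6533927-6538374, plus strand), ENO2 (ENSG00000111674, 6913745-6923698, plus strand) and LDHB (ENSG00000111716, 21635342-21757857, minus strand). ENO1 (ENSG00000074800) lies at chr1:8861000-8879250 and PKM (ENSG00000067225) at chr15:72199029-72231822, both on the minus strand, and ALDOA (ENSG00000149925) at chr16:30064164-30070457 on the plus strand. Reads that fall on exons of more than one gene are uncertain, because the treatment of such reads and of strand is not given in the sources used here. This touches ALDOA most, with 53.5% of its exonic bases shared, 42.3% of them with the protein-coding locus AC093512.2 on the same strand, which itself had 40 to 96 reads per library. LDHB shared 33.4% of its exonic bases with AC010197.2, also on the same strand, which had 0 to 2 reads. The levels of ALDOA and LDHB, and the changes computed from them below, are therefore uncertain. GAPDH shared 14.2% with an antisense gene at 0 reads, SLC16A3 6.04%, ENO1 2.39% and PGK1 1.76%, and PGAM1, ENO2, PKM and LDHA shared none. Processed pseudogenes were few in reads beside their parents. The 62 annotated for GAPDH together had at most 0.432% of the reads of GAPDH, led by GAPDHP1 with 174 to 258 reads, and the 13 of PGAM1 had at most 2.02%, led by PGAM1P5 with 11 to 56 reads.

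Since several of these genes are known hypoxia targets, the 250 bases before each RefSeq transcription start (GRCh38.p14) were searched on both strands for ACGTG. This is a form of the core of the hypoxia response element, and other forms were not searched. A match is a description of the letters and not a bound site. The palindrome CACGTG counts as 2 overlapping matches. At least 1 match stood before 6501 of 35116 start sites, 18.5%, and before at least 1 start site of 21.7% of 27305 genes. Of the 10 genes, 6 had a match: ALDOA, GAPDH, PGK1, ENO2, LDHA and SLC16A3. PGAM1, ENO1, PKM and LDHB had none in the windows searched. For GAPDH, PGK1, PGAM1, ENO1, ENO2, PKM and LDHB, the window lay inside the GENCODE gene span given above. The bases before the outer starts of those spans were not searched, so both labels, match and no match, hold for these windows only. ALDOA, LDHA and SLC16A3 have several listed start sites and so more chances of a match. LDHA had 5 matches, in 3 separate runs of letters, before its first listed start. At least 5 matches, with each CACGTG counted as 2, stood before 62 of all start sites, 0.177%. The stretches below are from RefSeq, on the plus strand and outside exons of protein-coding transcripts, with matches in capitals. LDHA, PGK1 and SLC16A3 are shown as examples of genes with repeated matches that fell in SK/EPI cells. Not shown are ALDOA, with a match before each of its listed starts, and GAPDH, with 1 CACGTG counted as 2. Both of these were also called lower there. PGAM1, with no match in its window, is shown as one that fell there and rose most with siBCRP. For LDHA, a longer transcript begins inside the window, so the stretch before it and a site of 30 bases within its first exon are given.
LDHA, chr11:18394313-18394387: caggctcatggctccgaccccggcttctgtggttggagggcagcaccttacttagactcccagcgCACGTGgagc
LDHA site, chr11:18394472-18394501: ctcaCACGTGggttcccgCACGTccgccgg
PGK1, chrX:78103998-78104173: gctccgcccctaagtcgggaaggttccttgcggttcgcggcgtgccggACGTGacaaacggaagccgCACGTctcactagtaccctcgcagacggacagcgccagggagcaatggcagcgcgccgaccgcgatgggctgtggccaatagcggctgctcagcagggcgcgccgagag
SLC16A3, chr17:82228792-82229031: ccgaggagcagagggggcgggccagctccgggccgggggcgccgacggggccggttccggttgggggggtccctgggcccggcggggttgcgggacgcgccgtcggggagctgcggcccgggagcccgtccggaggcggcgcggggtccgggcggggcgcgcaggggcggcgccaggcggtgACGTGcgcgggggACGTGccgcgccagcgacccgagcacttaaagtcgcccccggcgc
PGAM1, chr10:97427568-97427817: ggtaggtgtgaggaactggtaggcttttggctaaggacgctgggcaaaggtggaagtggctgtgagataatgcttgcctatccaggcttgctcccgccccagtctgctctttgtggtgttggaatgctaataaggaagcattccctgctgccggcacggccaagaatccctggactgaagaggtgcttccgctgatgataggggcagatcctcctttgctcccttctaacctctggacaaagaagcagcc

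The 10 genes spanned a wide range of levels, and GAPDH and ENO1 were the highest in all 4 groups. Levels are in FPKM, which are per length. The first table (SK-BR-3 and SK/EPI) and the second (siRNA groups) may have been normalized separately, so no test was made across them. In SK-BR-3 cells the order of mean levels was GAPDH (1241 ± 35.3 FPKM, SD, n = 3), ENO1, LDHA, PKM, PGK1, PGAM1, SLC16A3, ALDOA, LDHB and ENO2 (0.219 ± 0.0623), and no neighbours in that order had overlapping ranges. In SK/EPI cells LDHA stood in place 4, behind PKM, and the ranges of PGAM1 and PGK1 overlapped. In SK/EPI-siControl cells LDHA was in place 3 again, just above PKM. In SK/EPI-siBCRP cells LDHA was in place 6, with a range that overlapped that of PGK1, and PGAM1 was in place 3, with a range that overlapped that of PKM. ENO2, the neuronal enolase, was lowest in every group. Among all genes GAPDH ranked 19 in SK-BR-3 and 25 in SK/EPI cells, while LDHA ranked 99 and 317. The FPKM of the 10 genes together made up 0.876% to 0.880% of the library's FPKM in SK-BR-3, 0.667% to 0.669% in SK/EPI, 0.728% to 0.740% in SK/EPI-siBCRP and 0.692% to 0.705% in SK/EPI-siControl cells. GAPDH alone supplied 48.9% to 57.5% of that sum.

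**Figure D1:**
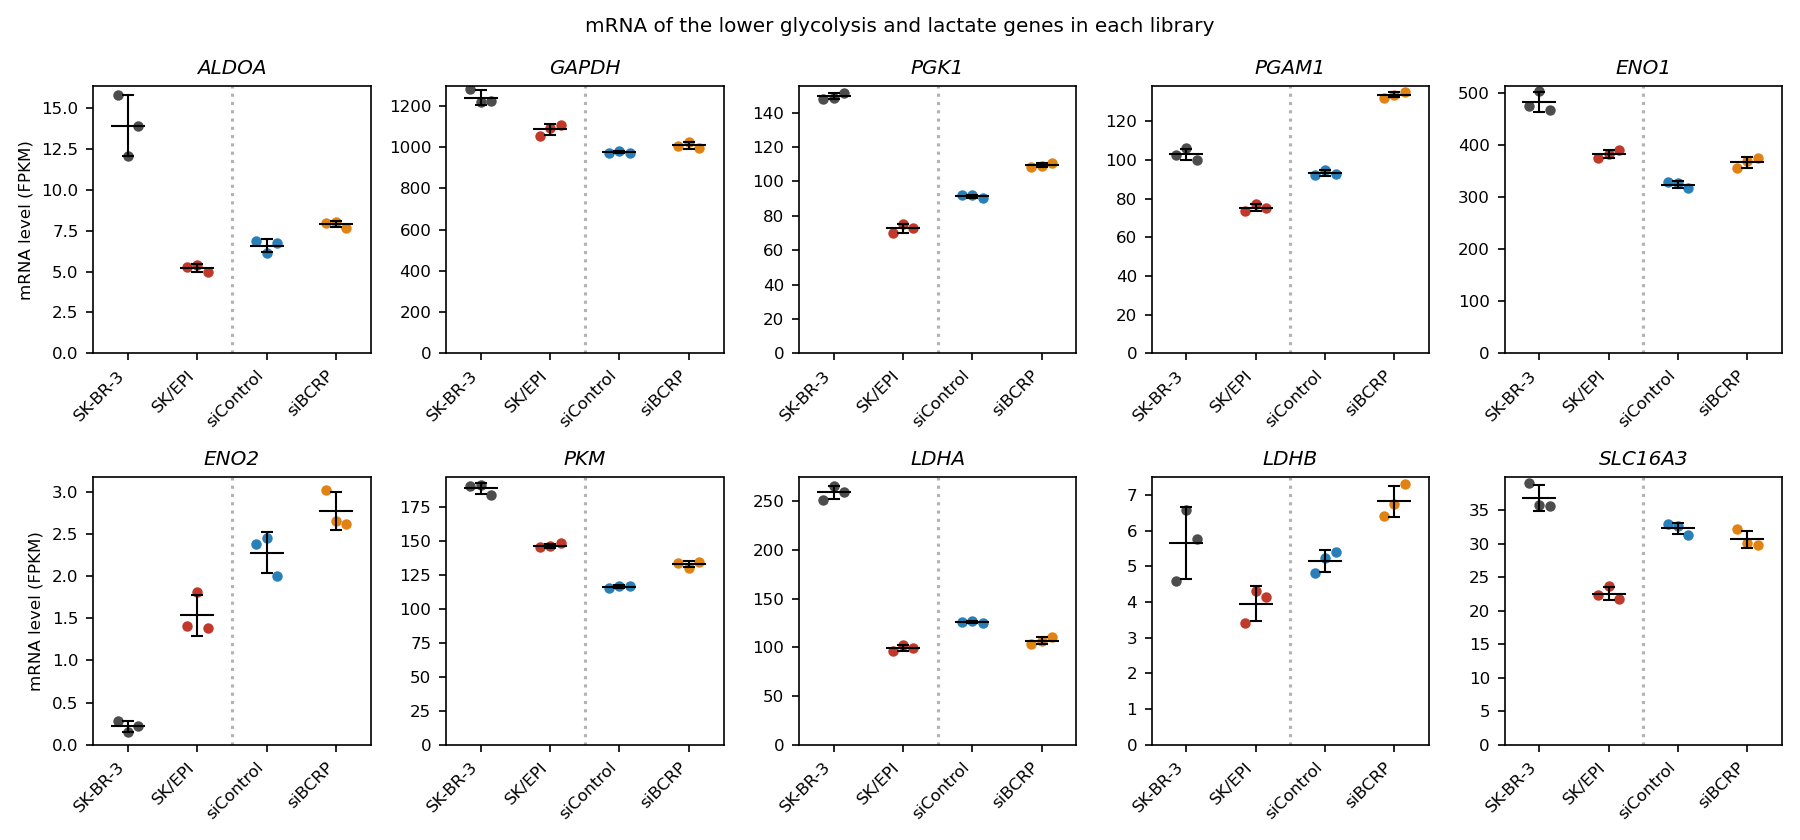
mRNA level (FPKM, linear axes from 0) of each gene in every library (points), with the group mean and SD (n = 3), and with the 2 separately deposited tables split by a dotted line. LDHA and PGK1 lie lower in all SK/EPI than in all SK-BR-3 libraries, PGAM1 is highest with siBCRP, and ENO2 is the one gene that is higher in SK/EPI than in SK-BR-3 cells.

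The first comparison, SK/EPI against SK-BR-3, shows how this route differs between resistant and parental cells. Of the 10 genes, 9 were lower in SK/EPI cells and 1, ENO2, was higher, and the groups did not overlap for any of them. The background was large, since 74.9% of the 15823 genes tested were called, 37.0% lower and 37.9% higher in SK/EPI cells, and 77.7% had groups that did not overlap, 39.4% with SK/EPI cells higher and 38.3% with them lower. The median log2 fold change was -0.43 over the 10 genes and 0.01 over all tested genes. LDHA had the largest fall on the log2(FPKM + 1) scale, followed by ALDOA, whose shared exons leave its change uncertain, and PGK1. The order of the first pair depends on the scale, since by the ratio of mean FPKM ALDOA stood at 0.374 and LDHA at 0.384 of the level in SK-BR-3, and ALDOA was also ahead with a pseudocount of 0.1 (-1.39 against -1.38) and with voom (-1.32 against -1.30). LDHA, ALDOA and PGK1 had log2 fold changes of -1 or less, as did 6.53% of all tested genes, and ENO2 was 1 of the 7.87% with a log2 fold change of 1 or more.

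All 3 genes at the lactate end of the pathway fell. LDHA, the dehydrogenase subunit that favours lactate formation, was at 252, 265 and 260 FPKM in the SK-BR-3 libraries and at 96.1, 102 and 99.6 in the SK/EPI libraries, a log2 fold change of -1.37 (SE 0.04, adjusted p = 2.3e-08). Every SK/EPI library lay far below every SK-BR-3 library, with 11485 to 11697 reads behind each of the former. LDHB, the subunit prominent in heart that favours the use of lactate, was at 4.61, 6.59 and 5.77 FPKM in SK-BR-3 and 3.40, 4.32 and 4.15 in SK/EPI libraries (log2 fold change -0.42, SE 0.12, adjusted p = 0.0131). The groups did not overlap, but the highest SK/EPI library was close to the lowest SK-BR-3 library, and with no filter on low genes the adjusted p was 0.0509. SLC16A3, which encodes the lactate exporter MCT4, was at 39.0, 35.8 and 35.6 FPKM in SK-BR-3 and 22.3, 23.6 and 21.8 in SK/EPI libraries, a log2 fold change of -0.68 (SE 0.05, adjusted p = 4.3e-06).

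In the enzymes that make ATP or NADH, PGK1 fell to about the level of PGAM1. PGK1, phosphoglycerate kinase, was at 148, 149 and 151 FPKM in SK-BR-3 and 69.7, 75.1 and 73.1 in SK/EPI libraries, a log2 fold change of -1.03 (SE 0.04, adjusted p = 7.6e-08). PKM, pyruvate kinase, was at 191, 191 and 184 FPKM against 145, 146 and 148 (log2 fold change -0.36, SE 0.03, adjusted p = 2.2e-05). Gene-level values do not separate the M1 and M2 splice forms of PKM. GAPDH, often used as a loading control, was at 1281, 1217 and 1224 FPKM in SK-BR-3 and 1055, 1095 and 1108 in SK/EPI libraries (log2 fold change -0.19, SE 0.06, adjusted p = 0.0203). This was the smallest change of the 10, and its call was lost in 5 of 14 alternatives. Reads on genes were 99.8% to 101% of the total that the FPKM scaling implies in SK-BR-3 and 92.8% to 95.4% in SK/EPI libraries, and with libraries scaled by reads on genes the log2 fold change of GAPDH was -0.11 (adjusted p = 0.0857). The call was also lost with no filter on low genes (adjusted p = 0.101), without SK/EPI replicate 2 (0.070) and without SK/EPI replicate 3 (0.0549).

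Among the remaining enzymes, ALDOA, the aldolase most widely expressed, was at 15.8, 12.1 and 13.9 FPKM in SK-BR-3 and 5.29, 5.40 and 4.95 in SK/EPI libraries (log2 fold change -1.26, SE 0.09, adjusted p = 4.5e-06). AC093512.2, which shares its exons, had 60 to 72 reads in SK-BR-3 and 67 to 96 in SK/EPI libraries. PGAM1, phosphoglycerate mutase, was at 103, 106 and 100.2 FPKM in SK-BR-3 and 73.7, 77.2 and 74.9 in SK/EPI libraries (log2 fold change -0.45, SE 0.03, adjusted p = 8.5e-06). ENO1, the main enolase, was at 474, 504 and 467 FPKM against 375, 383 and 390 (log2 fold change -0.33, SE 0.05, adjusted p = 3.0e-04). For both enzymes all SK/EPI libraries were below all SK-BR-3 libraries. ENO2 went the other way, from 0.280, 0.155 and 0.221 FPKM in SK-BR-3 to 1.41, 1.81 and 1.38 in SK/EPI libraries, which is a ratio of means of 7.02. Its log2 fold change was 1.05 (SE 0.08, adjusted p = 5.9e-06) and depends on the pseudocount, at 2.37 with a pseudocount of 0.1, 1.85 from TPM and 2.90 with voom on the recovered reads. Only 12 to 19 reads per library stood behind ENO2 in the SK-BR-3 group, against 111 to 140 in the SK/EPI group, and ENO1 was far above it in both.

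**Figure D2:**
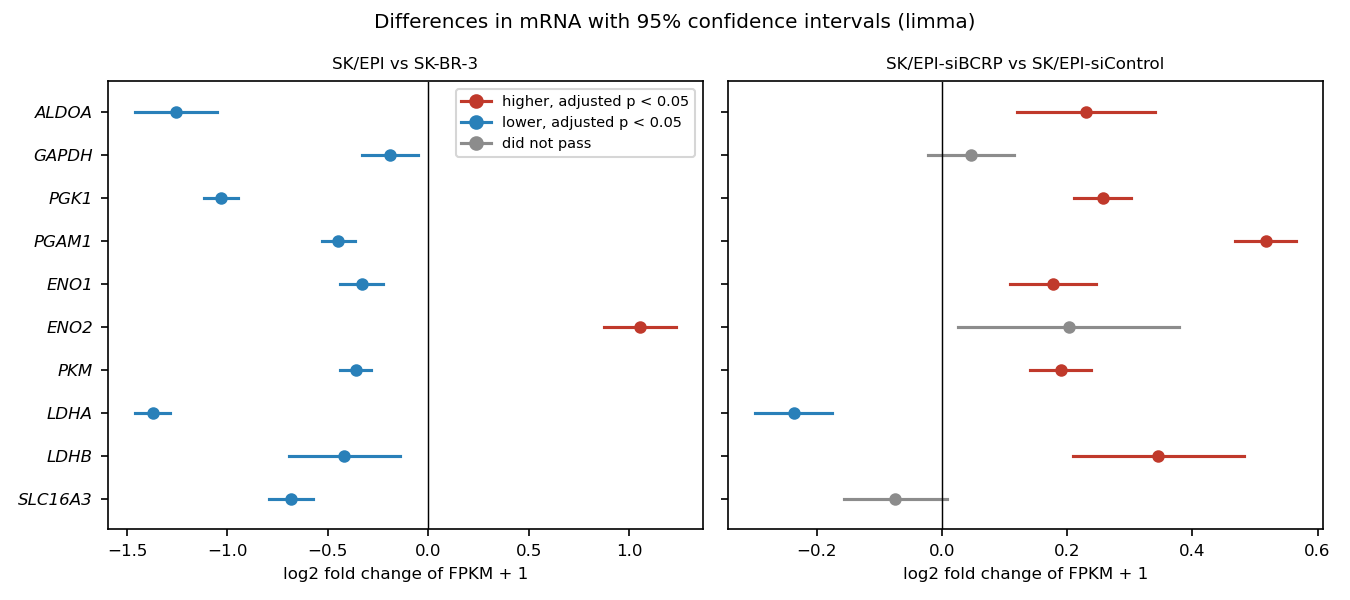
log2 fold change of FPKM + 1 with its 95% confidence interval from limma for each gene, SK/EPI against SK-BR-3 cells on the left and SK/EPI-siBCRP against SK/EPI-siControl cells on the right, with different horizontal scales. On the left 9 genes lie below 0 and ENO2 above, and on the right 6 genes are called higher, LDHA lower, and GAPDH, ENO2 and SLC16A3 did not pass.

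The sequence matches and the changes were set side by side as a description. The 3 genes that fell by a log2 fold change of 1 or more, ALDOA, PGK1 and LDHA, each had an ACGTG match, as did SLC16A3 at -0.68. The 4 genes without a match in the windows searched lay between -0.45 and -0.33. GAPDH, at -0.19, and ENO2, at 1.05, had a match too, so genes with a match stood at both ends of the range.

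The second comparison, siBCRP against siControl, shows how the route stood after BCRP was silenced in resistant cells. Of the 10 genes, 6 were higher with siBCRP (ALDOA, PGK1, PGAM1, ENO1, PKM and LDHB), 1 was lower (LDHA) and 3 did not pass (GAPDH, ENO2 and SLC16A3). Over all 16298 genes tested, 38.1% were called, 19.4% higher and 18.7% lower. The groups did not overlap for 9 of the 10 genes, SLC16A3 being the exception, where 50.9% of all tested genes had groups that did not overlap. The 6 genes called higher here were among the 9 called lower in SK/EPI against SK-BR-3 cells, while LDHA was called lower in both comparisons. No test was made of this. The shares called in each comparison, given above, do not give the share of all genes with both calls, which was not computed. The changes were small. The median log2 fold change was 0.20 over the 10 genes and -0.00358 over all tested genes, and none of the 10 reached 1 in either direction, as 0.0675% of all tested genes did upward and 0.344% downward.

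PGAM1 rose most. It was at 132, 134 and 135 FPKM in the SK/EPI-siBCRP libraries and 92.1, 94.8 and 92.7 in the SK/EPI-siControl libraries, 1.44 times the control level (log2 fold change 0.52, SE 0.02, adjusted p = 5.9e-06). This change was larger in size than that of 95.4% of all genes tested. PGK1, the enzyme one step before PGAM1, was at 109, 109 and 111 FPKM with siBCRP and 92.0, 92.0 and 90.4 with siControl (log2 fold change 0.26, SE 0.02, adjusted p = 7.1e-05). ENO1, the enzyme one step after, was at 356, 368 and 375 FPKM against 328, 327 and 316 (log2 fold change 0.18, SE 0.03, adjusted p = 0.00284). In each of these genes the 3 siBCRP libraries were all above the 3 siControl libraries.

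PKM, the next enzyme, was at 134, 130 and 134 FPKM with siBCRP and 115, 117 and 117 with siControl (log2 fold change 0.19, SE 0.02, adjusted p = 4.1e-04). ALDOA, at the head of the route, was at 7.99, 8.01 and 7.69 FPKM against 6.90, 6.14 and 6.74 (log2 fold change 0.23, SE 0.05, adjusted p = 0.0075). AC093512.2, which overlaps it, had 54 to 66 reads with siBCRP and 40 to 57 with siControl. GAPDH was at 1006, 1025 and 994 FPKM with siBCRP and 973, 983 and 973 with siControl, a log2 fold change of 0.05 with a 95% confidence interval from -0.02 to 0.12 (adjusted p = 0.246). Its libraries did not overlap, but the difference did not pass the test. ENO2 was at 3.02, 2.66 and 2.62 FPKM against 2.38, 2.45 and 2.00 (log2 fold change 0.20, 95% confidence interval 0.03 to 0.38, adjusted p = 0.0705). Both were called higher with voom on the recovered reads, GAPDH at a log2 fold change of 0.04 (adjusted p = 0.0294) and ENO2 at 0.27 (adjusted p = 0.0325).

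The 2 lactate dehydrogenase subunits moved in opposite directions with siBCRP. LDHA stood at 103, 107 and 110 FPKM in the siBCRP and 126, 127 and 125 in the siControl libraries, a log2 fold change of -0.24 (SE 0.03, adjusted p = 4.3e-04). It was the only gene of the 10 that was called lower. LDHB was at 6.42, 6.75 and 7.30 FPKM against 4.81, 5.25 and 5.41 (log2 fold change 0.35, SE 0.06, adjusted p = 0.0032), with 298 to 453 reads per library. All siBCRP libraries were below all siControl libraries for LDHA and above them for LDHB. SLC16A3 was at 32.2, 30.04 and 29.8 FPKM with siBCRP and 32.9, 32.7 and 31.4 with siControl (log2 fold change -0.07, 95% confidence interval -0.16 to 0.01, adjusted p = 0.140). The first siBCRP library lay within the control range. Without SK/EPI-siBCRP replicate 1 SLC16A3 was called lower, at -0.11 (adjusted p = 0.0307), as it was with voom, at -0.09 (adjusted p = 0.0146).

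Shares within a library were computed for pairs of genes with related products, since a share does not depend on how the library was scaled. With 3 libraries against 3, the two-sided exact permutation test cannot give a p below 0.1, and this smallest value applies to each share difference below whose groups did not overlap. LDHA made up 98.2%, 97.6% and 97.8% of the summed FPKM of LDHA and LDHB in SK-BR-3 and 96.6%, 95.9% and 96.0% in SK/EPI libraries. It made up 94.2%, 94.0% and 93.8% in SK/EPI-siBCRP and 96.3%, 96.0% and 95.8% in SK/EPI-siControl libraries. The share of LDHB was thus 2.13% in SK-BR-3 and 3.83% in SK/EPI cells, and 6.01% with siBCRP against 3.93% with siControl, so LDHA remained the main subunit in every library. Since LDHB overlaps another gene, its share is uncertain in size. ENO2 made up 0.0457% ± 0.0141 (SD, n = 3) of the enolase FPKM (ENO1 and ENO2) in SK-BR-3 and 0.399% ± 0.0625 in SK/EPI cells. With siBCRP it made up 0.751% ± 0.0807 and with siControl 0.698% ± 0.0619, and these groups overlapped (exact permutation test, two-sided, p = 0.6). ALDOA made up 43.3% ± 4.46 of the FPKM of ALDOA and ALDOC in SK-BR-3, 18.1% ± 1.61 in SK/EPI, 13.5% ± 0.447 in SK/EPI-siBCRP and 15.4% ± 1.28 in SK/EPI-siControl cells. These low shares of ALDOA are subject to its shared exons.

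The balance of the lactate transporters shifted too. SLC16A1 encodes MCT1, which carries lactate in either direction. It was at 1.19, 1.501 and 1.48 FPKM in SK-BR-3 and at 14.2, 15.8 and 15.3 in SK/EPI libraries (log2 fold change 2.75, adjusted p = 1.4e-08). Together with the fall of SLC16A3, this took the share of SLC16A3 in the summed FPKM of both genes from 97.1%, 96.0% and 96.0% in SK-BR-3 to 61.1%, 59.9% and 58.7% in SK/EPI libraries, a difference of -36.4 percentage points. By reads without length scaling the difference was -26.1 percentage points. With siBCRP SLC16A1 was at 19.3, 19.8 and 19.9 FPKM against 17.2, 16.8 and 16.7 with siControl (log2 fold change 0.21, adjusted p = 7.1e-04). The share of SLC16A3 was 60.9% ± 1.37 with siBCRP and 65.7% ± 0.338 with siControl, a difference of -4.78 percentage points, and the groups did not overlap.

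**Figure D3:**
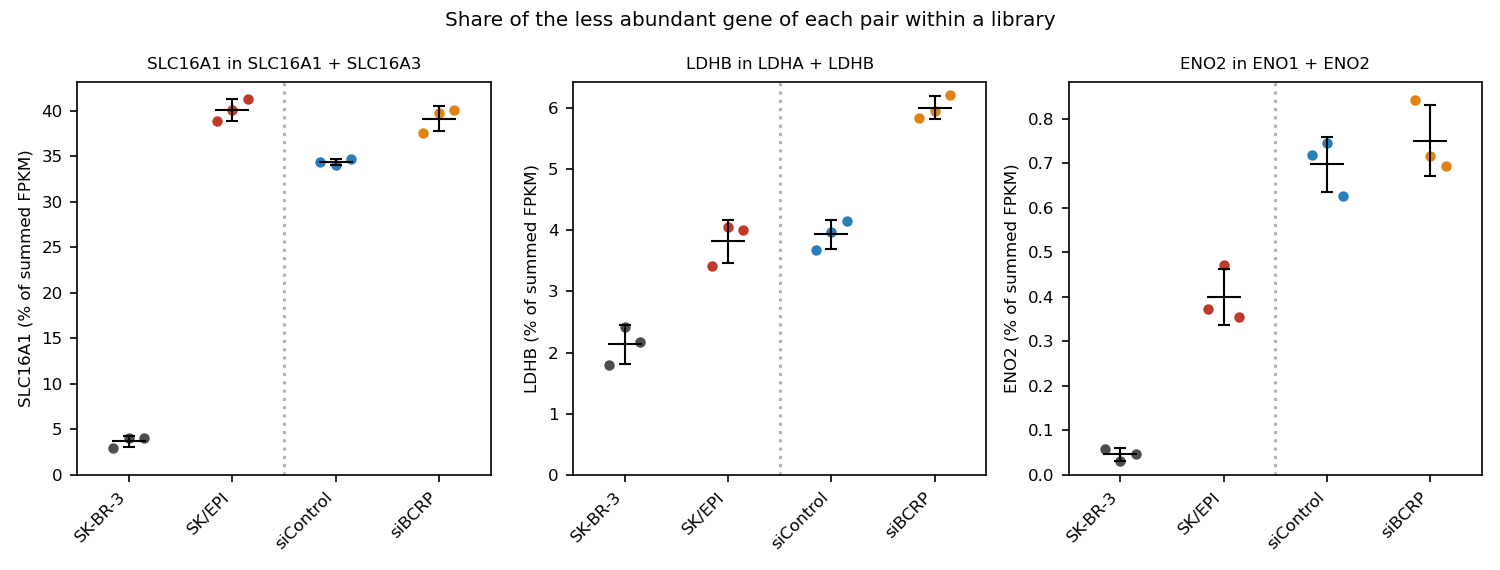
Share of the less abundant gene of each pair in the summed FPKM of the pair (percent, axes from 0), by library (points) with the group mean and SD (n = 3), and with the separately deposited tables split by a dotted line. SLC16A1 is at 3.66% in SK-BR-3 and 40.1% in SK/EPI cells, LDHB is highest with siBCRP at 6.01%, and ENO2 stays under 1% throughout.

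The genes around this route were counted from 7 lists, 73 genes in all. Of 64 tested in SK/EPI against SK-BR-3 cells, 22 were higher and 31 lower, beside 37.9% and 37.0% of all tested genes. Of 61 tested with siBCRP, 22 were higher and 16 lower, beside 19.4% and 18.7% of all tested genes. The counts of single lists below are to be read against the same shares. In glucose entry and upper glycolysis 8 of 13 tested genes were lower and 2 higher in SK/EPI cells. The glucose transporter SLC2A1 fell from 91.2 to 16.5 FPKM (log2 fold change -2.40, adjusted p = 5.5e-10) and the hexokinase HK1 from 116 to 15.3 (-2.84, adjusted p = 1.2e-09), whereas the transporter SLC2A3 rose from 0.342 to 28.5 (4.46, adjusted p = 5.1e-10). With siBCRP 6 of these 13 were higher, led by PFKFB2 (0.56, adjusted p = 7.9e-05), whose product sets the level of an activator of phosphofructokinase, and by the phosphofructokinase PFKP (0.41, adjusted p = 1.6e-04), and 4 were lower, led by PFKFB3 (-0.35, adjusted p = 0.00366) and SLC2A3 (-0.25, adjusted p = 5.3e-04).

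Isozymes of the 10 genes, listed together with the similarly named LDHD, were mostly too low to test, with 4 of 12 tested in each comparison. ALDOC, the brain aldolase, was the most abundant and rose in both, from 18.2 to 23.7 FPKM in SK/EPI cells (log2 fold change 0.36, adjusted p = 8.4e-04) and from 36.4 to 50.7 with siBCRP (0.47, adjusted p = 4.2e-05). ENO3, the muscle enolase, rose in SK/EPI cells (0.58, adjusted p = 2.3e-05), while LDHD (-1.005, adjusted p = 4.8e-06) and LDHC (-0.44, adjusted p = 0.00227) fell. LDHC had only 2 to 8 reads per SK/EPI library and 14 to 23 per SK-BR-3 library. It passed the filter only through SK-BR-3 cells, which fixed the direction of its call. Of the other lactate transporters and their chaperones, 4 of 7 were higher and 3 lower in SK/EPI cells. The 3 lower, EMB, SLC5A8 and SLC16A7, had 0 reads in every SK/EPI library, and SLC5A12, called higher, had 0 to 1 in SK-BR-3 libraries. These genes passed the filter only through the other line, which fixed the direction of their calls. BSG (basigin), the chaperone of MCT1 and MCT4, rose there (0.36, adjusted p = 7.8e-05) and with siBCRP (0.19, adjusted p = 8.0e-04). EMB (embigin), a chaperone of related transporters, was at 6.63 FPKM in SK-BR-3 and at 0 reads in all SK/EPI libraries, at least 218-fold lower by the FPKM of 3 reads per library. All 5 genes of the serine branch, which leaves glycolysis at the substrate of PGAM1, were higher in SK/EPI cells by small amounts, led by PSPH (0.38, adjusted p = 3.2e-04). With siBCRP 3 of the 5 were higher and 2 did not pass, led by PSAT1, from 20.03 to 31.0 FPKM (0.61, adjusted p = 3.2e-05).

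The cytosolic NADH shuttles, which compete with lactate dehydrogenase for NADH, had 5 of 10 genes lower and 2 higher in SK/EPI cells, and 7 higher and 1 lower with siBCRP. GOT2 fell from 83.6 to 48.9 FPKM in SK/EPI cells (-0.76, adjusted p = 2.2e-06) and rose from 51.0 to 75.0 with siBCRP (0.55, adjusted p = 1.1e-05), and GOT1 rose most with siBCRP (0.65, adjusted p = 1.1e-05). Of 8 hypoxia factors and their regulators, 2 were higher and 3 lower in SK/EPI cells, and 3 did not pass. HIF1A rose from 25.4 to 54.5 FPKM in SK/EPI cells (1.07, adjusted p = 1.0e-07), and VHL rose too (0.58, adjusted p = 2.2e-05). EPAS1 (-0.71, adjusted p = 5.3e-07), the prolyl hydroxylase EGLN1 (-0.61, adjusted p = 8.7e-06) and the partner ARNT (-0.48, adjusted p = 4.1e-05) fell. With siBCRP 3 of the 8 were lower and none higher. Of the hypoxia-inducible genes outside glycolysis, 10 of 17 were lower and 5 higher in SK/EPI cells, the falls led by the carbonic anhydrase CA12, from 17.6 to 0.132 FPKM (-4.04, adjusted p = 9.8e-10), and NDRG1, from 68.0 to 5.55 (-3.40, adjusted p = 1.1e-10), and the rises by the oxidase ERO1A (0.89, adjusted p = 7.2e-07) and VEGFA (0.88, adjusted p = 4.4e-07). CA9, among the genes called lower, had 0 to 3 reads per SK/EPI library and 24 to 39 per SK-BR-3 library. It too passed the filter only through SK-BR-3 cells, which fixed the direction of its call. With siBCRP 8 of 16 were lower and 3 higher.

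**Figure D4:**
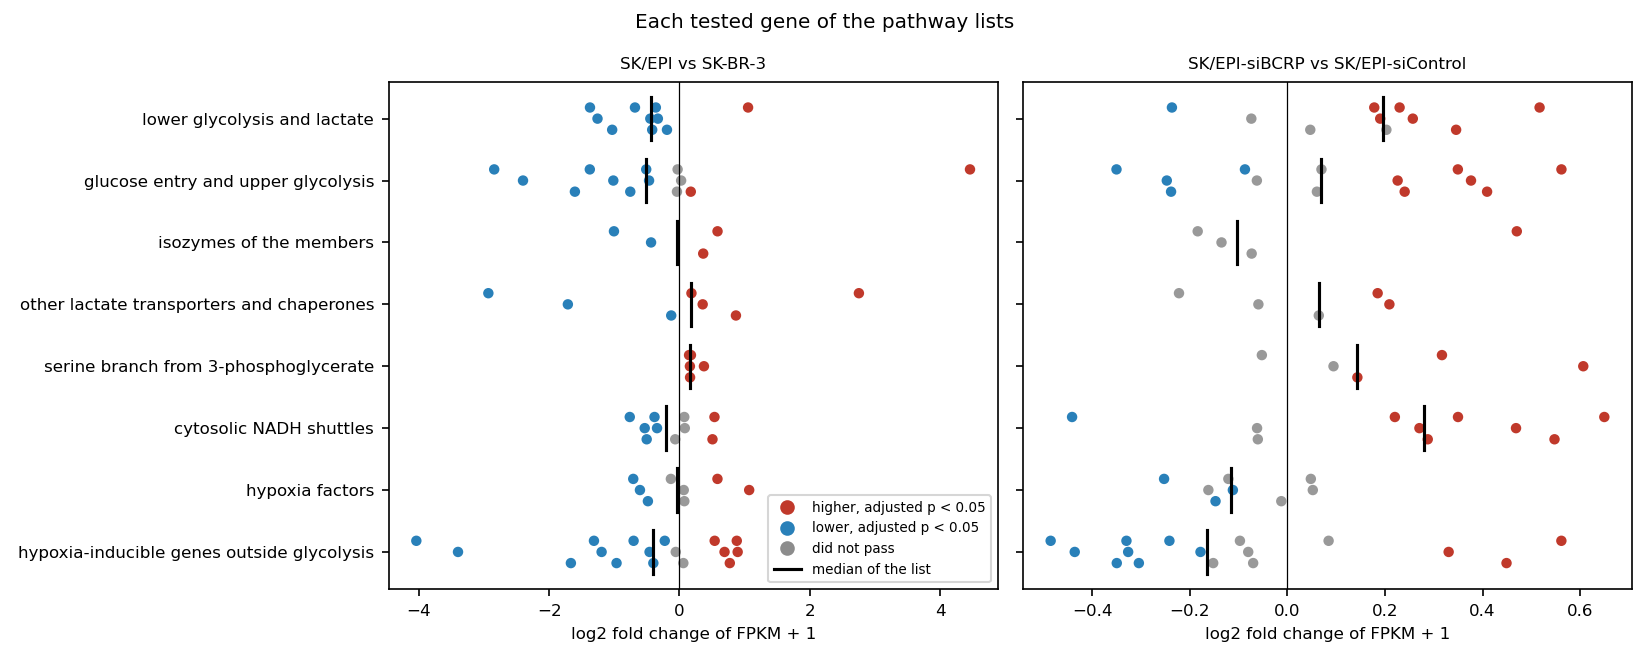
log2 fold change of FPKM + 1 of each tested gene (points) by list, with the median of the list as a bar, SK/EPI against SK-BR-3 cells on the left and SK/EPI-siBCRP against SK/EPI-siControl cells on the right, with different horizontal scales. The lower glycolysis and lactate genes have a median of -0.43 on the left and 0.20 on the right, and with siBCRP the NADH shuttles have the highest median, 0.28, and the hypoxia-inducible genes the lowest, -0.17.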

How the data were processed

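Poly-A RNA of 12 libraries was sequenced, and the authors deposited FPKM of 58735 genes in 2 tables. The submitters' processing notes name HISAT2 2.0.5, featureCounts 1.5.0-p3, DESeq2 1.16.1 and hg38. The table headers name no unit. FPKM was read from the values, since each value times the GENCODE 29 merged exon length was a whole multiple of a step per library (100% of genes above 0, within 0.05 reads) and library sums differed (253312 to 288028). Reads were recovered from these steps, and floors from them cover counting error only.

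Groups came from the labels. The filter asked for 10 or more reads, rescaled to the median library, in 3 or more libraries, and for a total of 15 or more. Genes that passed were fitted with limma 3.58.1 (lmFit, eBayes with a trend) in R 4.3.3 on log2(FPKM + 1), each table separately, with Benjamini-Hochberg adjustment at 0.05. Count models were not used as the main test because the deposited values are FPKM. The fit was tested on simulated data. Shares were compared with exact permutation tests in scipy 1.17.1. Within groups, all 12 pairs of libraries differed beyond sampling noise (chi-square per degree of freedom 1.64 to 4.27). The text names the 10 genes, ABCG2, SLC16A1, and genes drawn from the up to 3 largest called rises and 3 largest called falls of each list, not all of which are named. Members and lists were chosen with earlier results of these data known. Alternatives were other filters, pseudocounts, scalings, voom, a replicate block, leaving out each library and a fold threshold.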

Additional observations from a re-analysis of the deposited data

How the results depend on the processing

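Of 140 alternative values for the 10 genes in SK/EPI against SK-BR-3 cells, 134 kept their direction and side of the threshold and 6 lost the call, 5 for GAPDH and 1 for LDHB. Of 140 with siBCRP, 136 did so and 4 passed newly (GAPDH, ENO2 and SLC16A3). None reversed. A log2 fold change of at least 1 left 3 of the 10 genes lower and ENO2 higher in SK/EPI cells, and 0 higher and 0 lower with siBCRP. It left 3 higher and 13 lower genes of the surrounding lists in SK/EPI cells and 0 in both directions with siBCRP. Over all genes it left 1245 higher and 1033 lower in SK/EPI cells, and 11 and 56 with siBCRP. With at least 10 reads in every library, 19 genes of the surrounding lists were higher and 26 lower in SK/EPI cells, beside 4807 and 5207 of all 13214 genes then tested. With voom 2 of the 10 were lower with siBCRP, LDHA and SLC16A3, and leaving out 1 library gave 1 to 2. By reads without length scaling the share of LDHA differed by -0.84 percentage points in SK/EPI and -1.05 with siBCRP, that of ENO2 by 0.287 and that of SLC16A3 by -26.1 in SK/EPI cells, since the genes differ in length.

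Libraries share replicate numbers between groups, but the labels do not say whether the numbers mark pairs. Deviations of same-numbered libraries correlated at -0.0401, -0.00201 and -0.0485 in the first table and 0.0204, 0.0551 and 0.00923 in the second. The mean correlation between different numbers was 0.0151 in the first and -0.0141 in the second. So few values, all near 0, cannot settle whether the libraries were paired. With a replicate block 8 of the 10 genes were lower in SK/EPI cells in place of 9, GAPDH being lost (adjusted p = 0.0558), and 6 higher and 1 lower with siBCRP. Over all genes the block called 5889 higher and 5767 lower in SK/EPI cells, and 2896 and 2744 with siBCRP. Depth limits ENO2 in SK-BR-3 cells, at 12 to 19 reads.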

Other observations

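Untreated SK/EPI cells and SK/EPI-siControl cells are the same line without and with control siRNA, but they stand in tables that were normalized separately, so their levels are given side by side without a test. LDHA was at 96.1 to 102 FPKM in SK/EPI and 125 to 127 in SK/EPI-siControl libraries, and SLC16A3 at 21.8 to 23.6 and 31.4 to 32.9. ENO2 was at 1.38 to 1.81 FPKM and 2.00 to 2.45, and PGAM1 at 73.7 to 77.2 and 92.1 to 94.8. GAPDH was at 1055 to 1108 and 973 to 983 FPKM, ENO1 at 375 to 390 and 316 to 328, and PKM at 145 to 148 and 115 to 117. PGK1 was at 69.7 to 75.1 and 90.4 to 92.0 FPKM, ALDOA at 4.95 to 5.40 and 6.14 to 6.90, and LDHB at 3.40 to 4.32 and 4.81 to 5.41. GAPDH, ENO1 and PKM had the higher values in the untreated table and the other genes in the siControl one. No share over all genes was computed for this contrast, so these directions are a description only. For PGAM1 the siBCRP libraries, at 132 to 135 FPKM, lay above all others of the series, SK-BR-3 included, at 100.2 to 106.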
